A study of Mus musculus with 18 samples.

Results

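The nuclear and the whole cell pulldowns made with a scrambled biotinylated mimic (Scr) were compared with each other, using the 3 nuclear Scr and the 3 whole cell Scr samples among the 18 samples sequenced. The cells were Neuro2A, a line grown from a mouse neuroblastoma. Both Scr groups were transfected with the biotinylated scrambled sequence at 25 nM, and RNA was then captured on streptavidin beads either from isolated nuclei or from a lysate of whole cells, which also holds the nuclei. The other 12 samples were the same 2 lysates of untransfected cells (Control) and of cells given biotinylated *miR-92b* (92b) at 25 nM, with 3 samples per group. The groups came from 1 cell line, and the labels do not say whether the 3 samples of a group were separate cultures, so the p-values measure only the spread between these samples. Of 168136 loci in the authors' assembly, 52179 carried a gene symbol and were the members of the comparison. Of these, 23410 had at least 1 read in a Scr sample and 15579 had enough reads to be tested.

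A scrambled sequence is designed to match no transcript, so a pulldown with it serves as the background of a miRNA pulldown. RNA from a nucleus differs from that of the whole cell in known ways. Long noncoding RNAs such as *Malat1*, *Neat1* and *Xist* stay at the chromatin or in nuclear bodies, many primary transcripts and transcripts with retained introns wait in the nucleus, and the mRNAs of ribosomal proteins, glycolytic enzymes and the cytoskeleton, as well as transcripts made inside mitochondria, are found in the cytoplasm. The comparison therefore asks which RNAs the beads carried from each lysate when the bait had no intended target.

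The study checked its fractions by RT-qPCR for, among others, *Malat1*, *Neat1*, *Gapdh* and *Eef2*, and the primers mark the parts of these transcripts on which the fractions were judged. They are printed 5′ to 3′ as the study lists them, and were placed by exact match on the transcripts of GENCODE release M21 (GRCm38).
Malat1 forward: cctaatcacagacccttcac
Malat1 reverse: aaattacaggcaaggggaaa
Neat1 forward: cacacgcttctctgtactaa
Neat1 reverse: tgacagaggtcgagaatgta
Gapdh forward: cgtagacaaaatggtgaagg
Gapdh reverse: agtggagtcatactggaaca
Eef2 forward: tgcatcattgaggagtctgg
Eef2 reverse: cgatatgacacaacagggt

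The *Malat1* pair lies in the single exon of *Malat1*-201 (chr19:5796450-5796469 and chr19:5796319-5796338), and the *Neat1* pair in that of *Neat1*-201 (chr19:5842376-5842395 and chr19:5842263-5842282). The *Gapdh* primers lie in exons 2 and 3 of *Gapdh*-201 (chr6:125165284-125165303 and chr6:125163310-125163329) and the *Eef2* primers in exons 10 and 11 of *Eef2*-201 (chr10:81180565-81180584 and chr10:81180811-81180829), so that both of these pairs span an intron.

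The study gave its markers as a percent distribution between nuclear and cytoplasmic fractions. The sequenced samples are pulldowns from nuclei and from whole cells, so their counts are a different measure. The same transcripts lay apart in these samples, although *Malat1* and *Neat1* did not pass the threshold of the test below. The normalised count (the reads of a locus after division by the size factor of its sample) of *Malat1*, a nuclear speckle RNA, was 91317, 84335 and 79997 in the nuclear samples and 50238, 47232 and 58387 in the whole cell samples. For *Neat1*, the scaffold of paraspeckles, the values were 32299, 30012 and 27265 against 17026, 15032 and 20694. For *Gapdh*, a glycolytic enzyme, they were 859, 1234 and 1644 against 3972, 3398 and 4576. Nuclear and whole cell samples did not overlap for any of these transcripts, with both noncoding RNAs higher and *Gapdh* lower in the nuclear samples. *Eef2*, the translocase of translation elongation, was at 2163, 4285 and 5208 in nuclear and at 14157, 12299 and 18288 in whole cell samples, and *Actb*, beta-actin, was at 1397, 1898 and 2358 against 5287, 5246 and 4626. Both were also lower in every nuclear sample. *Miat* (Gomafu), another nuclear RNA used by the study, has no locus among those tested here.

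**Figure D1:**
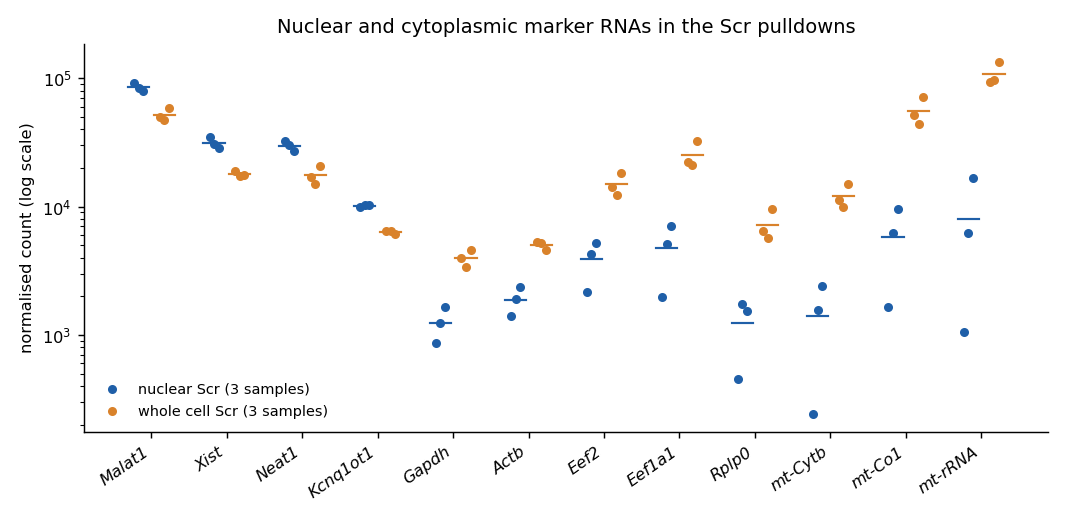
Normalised counts (log scale) of 4 nuclear long noncoding RNAs and of 8 cytoplasmic or mitochondrial transcripts in the 3 nuclear Scr samples (blue) and the 3 whole cell Scr samples (orange), with a bar at each mean. The nuclear samples lie above the whole cell samples for Malat1, Xist, Neat1 and Kcnq1ot1 and below them for the other 8, where the first nuclear sample is the lowest.

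Loci with a symbol received 3754690 to 5161739 reads in the nuclear Scr group and 5769804 to 22920038 in the whole cell Scr group, while loci without a symbol took 10.4% to 15.3% of all reads. At a common depth of 3752991 reads, nuclear samples 1, 2 and 3 held reads on 19785, 14729 and 14958 loci and whole cell samples on 14829, 16841 and 16036. In the other 6 nuclear samples (Control and 92b) the number was 15732 in one and 19886 to 20720 in the others, so that nuclear Scr samples 2 and 3 held reads on fewer loci than these. Nuclear Scr sample 1 had the smallest share of mitochondrial, cytosolic ribosome and elongation factor reads of the 3, and the largest share of glycolysis reads (0.868% against 0.718% and 0.725%). Neuroblastoma markers were found in both lysates at summed normalised counts of 19767 to 20924 (nuclear) and 19528 to 21880 (whole cell), with *Ret*, *Hand2* and *Isl1* among them, while 5 of the 24 marker loci, with *Ddc*, *Nefl*, *Nefm* and 1 of the 2 *Hand1* loci among them, were at 0 in all 6 samples. Markers of glia, blood, endothelium, fibroblasts and epithelium (21 loci, 11 at 0 in every Scr sample) summed to 145 to 219 in nuclear and 161 to 315 in whole cell samples.

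Differences were tested with limma on log2(normalised count + 1), two-sided, in 1 model of all 6 groups, and a locus was called where the p-value adjusted by the Benjamini-Hochberg method over all tested loci was below 0.05. In the nuclear Scr samples 228 of the 15579 loci were called higher (1.46%) and 577 lower (3.70%), 805 in all (5.17%). The median difference of all tested loci was 0.01 on the log2 scale. The nuclear samples lay above all whole cell samples at 1665 loci (10.7%) and below all of them at 1805 (11.6%), and 786 of the 805 called loci were among these. Called loci that were higher had a median difference of 1.24, and those that were lower a median of -1.65. At 141 of the 805 a Scr sample was at 0, so that the size of the difference depends on the value of 1 added before the log. A whole cell sample was at 0 for 62 of those called higher, and a nuclear sample for 79 of those called lower. Of the called loci, 121 join more than 1 gene symbol, and the reads of these loci belong to the joined genes together.

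The number of calls moved with single samples. It was 500 without nuclear Scr sample 2, 418 without whole cell Scr sample 1 and 386 without whole cell Scr sample 3. The largest move came from a sample outside the comparison that enters the shared estimate of the spread. Whole cell 92b sample 3 carried 7.15% of its reads on mitochondrial transcripts against 2.16% and 2.14% in its group, and without it 761 loci were called higher and 983 lower. This alternative was chosen after the data were seen. DESeq2 on the recovered reads called 569 loci higher and 719 lower, and with samples scaled to the same median limma called 334 higher and 502 lower. Loci called lower outnumbered those called higher in each fit whose split is given here, by a margin that depends on the scaling.

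**Figure D2:**
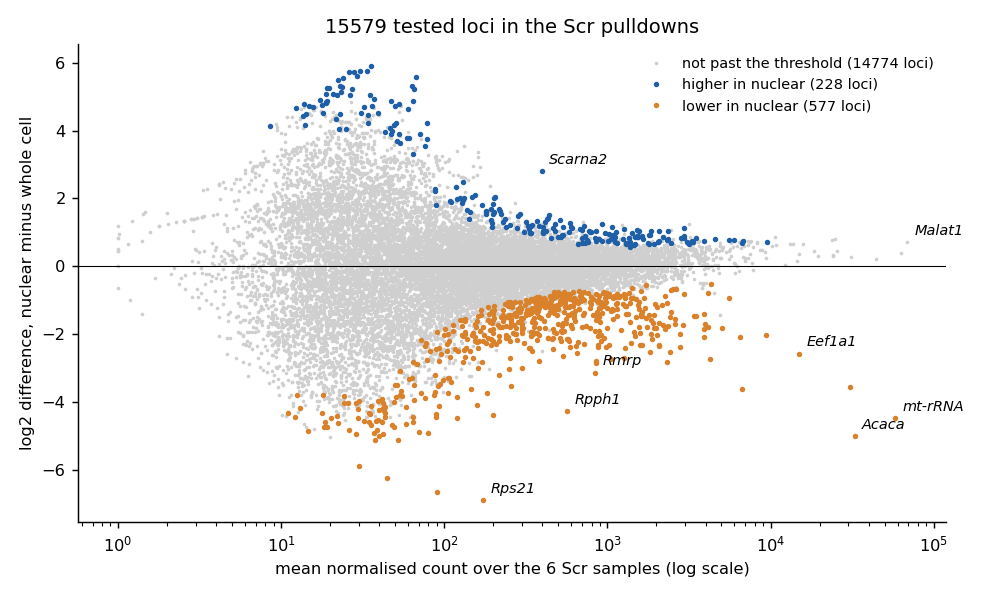
Mean normalised count over the 6 Scr samples (x axis, log scale) against the log2 difference of nuclear minus whole cell (y axis) for the 15579 tested loci. Points in blue are the 228 loci called higher and points in orange the 577 called lower. Lower loci reach far at high counts (Acaca, mitochondrial rRNA, Eef1a1), while higher loci at high counts stay close to the line of no difference.

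Of 20 tested loci of nuclear long noncoding RNAs, 3 were called higher (15%, against 1.46% of all tested loci) and none lower. The difference was positive at all 20 loci, against 7827 of all 15579 tested loci, with a median of 0.79. These 20 loci are not 20 separate RNAs. Several are loci of the same gene, *Snhg14*, and 1 of those is joined with *Snrpn* and *Snurf*. In all, 13 of the 20 join more than 1 gene symbol. Every nuclear sample lay above every whole cell sample at 9 of the 20, against 10.7% of all tested loci. No locus of the list was called without nuclear Scr sample 2, and 1 was called without nuclear sample 3 or whole cell sample 2. Together the list took 3.11%, 2.80% and 2.64% of the nuclear reads and 1.73%, 1.59% and 1.83% of the whole cell reads (exact permutation test, two-sided p = 0.1, the smallest that 3 against 3 samples can give). The 3 called loci were those of *Dleu2*, *Mir17hg* and *Snhg14*, which are host transcripts of miRNAs or snoRNAs.

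*Mir17hg*, the primary transcript of the miR-17 to miR-92a cluster, was at 722, 1161 and 637 in nuclear and at 333, 353 and 326 in whole cell samples, a difference of 1.26 ± 0.28 (SE) with an adjusted p of 0.00991. The locus takes in the whole cluster on chromosome 14. One of its products, miR-92a, shares its seed with the *miR-92b* used as bait in the other arm of the study. The mature sequences are given here from RefSeq (GRCm38.p6), with the seed, bases 2 to 8, in capitals.
miR-92a-3p (chr14:115044476-115044496): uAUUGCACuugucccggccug
miR-92b-3p (chr3:89227126-89227147): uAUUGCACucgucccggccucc

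*Dleu2*, which hosts miR-15a and miR-16-1, was at 1414, 1328 and 1520 in nuclear and at 1031, 734 and 608 in whole cell samples (log2 difference 0.88 ± 0.25, adjusted p = 0.0446). One locus of *Snhg14*, the long snoRNA host of the imprinted *Ube3a* region, was at 309, 337 and 342 against 184, 97.2 and 174 (1.17 ± 0.30, adjusted p = 0.0265). The groups did not overlap at either locus. Of these 3 calls, *Dleu2* was kept in 1, *Snhg14* in 3 and *Mir17hg* in 5 of the 6 fits that left out 1 Scr sample.

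The best known members of the list were not called although their samples did not overlap. *Xist*, the RNA that coats the inactive X chromosome, was at 34962, 30938 and 28743 in nuclear and at 18785, 17424 and 17582 in whole cell samples (0.81 ± 0.27, adjusted p = 0.0744). *Kcnq1ot1*, an imprinted RNA that silences its neighbours, was at 9914, 10314 and 10217 against 6423, 6485 and 6065 (0.68 ± 0.24, adjusted p = 0.0986). The differences of *Malat1* and *Neat1* were 0.72 ± 0.28 (adjusted p = 0.127) and 0.77 ± 0.25 (adjusted p = 0.0661). Each of these RNAs thus had 1.6 to 1.8 times its whole cell count in the nuclear samples. Without whole cell 92b sample 3 all of them passed the threshold. The limma adjusted p-values were 0.00184 for *Malat1*, 0.00123 for *Neat1*, 0.000114 for *Xist* and 0.00053 for *Kcnq1ot1*. In that fit 8 loci of the list were called higher, against 761 of all 15579 tested loci.

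The other long noncoding RNAs of the list ranged from 0.01 to 2.23 and none passed the threshold. *Peg13* (0.85) and *Firre* (0.85) were higher in every nuclear sample. *Meg3* (2.23), *Jpx* (1.91) and *Rian* (0.84), all with low counts, overlapped between the groups. *Pvt1* (0.11), *Ftx* (0.05) and *Airn* (0.01) had nearly the same level in both lysates. The other 5 *Snhg14* loci lay between 0.07 and 1.52.

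*Scarna2*, a small Cajal body RNA that guides modification of the U2 spliceosomal RNA, was at 366, 871 and 849 in nuclear and at 121, 48.6 and 128 in whole cell samples, 7.0 times higher on average (log2 difference 2.81 ± 0.39, adjusted p = 0.000307). Every nuclear sample lay above every whole cell sample, and the call was kept in all 6 fits without 1 Scr sample. The other short structural RNAs went the opposite way, although *Rpph1* and *Rmrp*, the RNA parts of RNase P and RNase MRP, also act in the nucleus. *Rpph1* was at 12.2, 171 and 64.3 in nuclear and at 722, 1242 and 1186 in whole cell samples (-4.27 ± 0.67, adjusted p = 0.000736). *Rmrp* was at 32.0, 387 and 333 against 1383, 1302 and 1600 (-3.13 ± 0.73, adjusted p = 0.0136). For both, nuclear sample 1 was the lowest and the groups did not overlap.

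*Rmrp* and the other RNAs of this kind were looked at after their values were seen. *Rn7s2*, a 7SL RNA of the signal recognition particle, was called lower (-3.21, adjusted p = 0.0411), while *Rn7s1* (-3.97, adjusted p = 0.0630), *Rn7sk*, which holds back the elongation factor P-TEFb (-1.43, adjusted p = 0.0779), and *Terc*, the telomerase template (-2.82, adjusted p = 0.114), did not pass. All 6 such RNAs had negative differences, and 3 were called lower (50%, against 3.70% of all tested loci). The number called was 1 without nuclear sample 1 or whole cell sample 3 and 2 without whole cell sample 1 or 2. In the Control and 92b cells *Rpph1* differed by -5.02 and -4.17, *Rmrp* by -4.62 and -3.96 and *Scarna2* by 2.49 and 3.14, so each kept its direction there. The libraries were selected on oligo-dT, which holds runs of A, and RNAs of this kind carry no regular poly(A) tail. The sequences are therefore shown from GENCODE M21 with their longest run of A in capitals, which is 4, 2 and 3 bases in *Scarna2* (bases 115 to 414 of 414), *Rpph1* (bases 1 to 300 of 319) and *Rmrp* (all 271 bases). They lie on the minus strand at chr3:108554338-108554751, chr14:50807449-50807767 and chr4:43492788-43493058.
Scarna2: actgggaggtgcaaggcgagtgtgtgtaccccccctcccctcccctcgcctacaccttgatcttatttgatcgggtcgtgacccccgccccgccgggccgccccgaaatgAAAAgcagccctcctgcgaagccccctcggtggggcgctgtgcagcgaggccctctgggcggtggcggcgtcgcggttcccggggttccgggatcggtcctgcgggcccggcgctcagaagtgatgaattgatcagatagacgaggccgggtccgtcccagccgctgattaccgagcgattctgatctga
Rpph1: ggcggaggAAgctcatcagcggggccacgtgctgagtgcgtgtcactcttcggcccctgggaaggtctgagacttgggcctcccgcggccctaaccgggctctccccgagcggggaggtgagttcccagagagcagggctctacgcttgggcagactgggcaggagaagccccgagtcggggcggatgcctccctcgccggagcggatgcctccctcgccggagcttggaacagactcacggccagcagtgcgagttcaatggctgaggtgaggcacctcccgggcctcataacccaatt
Rmrp: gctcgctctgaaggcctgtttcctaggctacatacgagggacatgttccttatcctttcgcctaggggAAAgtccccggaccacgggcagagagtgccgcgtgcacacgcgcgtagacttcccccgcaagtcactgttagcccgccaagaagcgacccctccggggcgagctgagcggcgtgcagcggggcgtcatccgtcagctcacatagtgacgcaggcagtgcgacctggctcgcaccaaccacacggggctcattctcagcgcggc

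G and C made up 64.0%, 67.1% and 64.2% of these 3 RNAs, which is close in *Scarna2*, the one that was higher, and in the 2 that were lower. Of the other scaRNA loci, *Scarna6* (3.51) and *Scarna13* (1.81) were positive and not called. *Scarna3a* (0.18), *Scarna3b* (0.40) and *Scarna10* (-0.06), in loci joined with other genes, had small differences and were not called either. The part of tail selection in these values was not tested.

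*Srsf7*, an SR splicing factor, was at 2326, 2396 and 2711 in nuclear and at 878, 1540 and 1299 in whole cell samples (1.03 ± 0.21, adjusted p = 0.00498). *Srsf4*, in a locus with an antisense transcript, was at 1862, 1920 and 2173 against 891, 1182 and 1157 (0.89 ± 0.25, adjusted p = 0.0393), a call that was lost whichever Scr sample was left out. Both groups of samples were apart for both genes. Of 12 tested SR protein loci these 2 were called higher (16.7%, against 1.46% of all tested loci), none was called lower, and the median was 0.37. Genes known for detained introns include the kinases *Clk1* (0.29) and *Clk4* (0.35) and the methionine adenosyltransferase *Mat2a* (0.53). Their difference was positive in 12 of 12 loci, against 7827 of all 15579 tested loci, with a median of 0.40. None of the 12 was called. Without whole cell 92b sample 3, 6 were called higher, against 761 of all 15579 tested loci. In Control and 92b cells this list had medians of 0.52 and 0.65, against 0.06 and 0.26 for all tested loci.

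Zinc finger protein genes, taken by their Zfp symbol, had a median of 0.24. Of 330 tested loci 6 were called higher (1.82%) and 3 lower (0.909%), close to the share among all loci for the higher ones. The number called higher was 1 without nuclear sample 3 and 2 without whole cell sample 1, and the number called lower was 9 without nuclear sample 1 and 0 without whole cell sample 3. *Zfp292* was at 4536, 3508 and 4551 in nuclear and at 2502, 2674 and 2391 in whole cell samples (0.73 ± 0.18, adjusted p = 0.0194), and *Zfp825* at 1847, 2034 and 2454 against 948, 1014 and 1129 (1.03 ± 0.23, adjusted p = 0.0106). Among chromatin regulators, 2 of 59 loci were called and both were lower (3.39%, near the 3.70% of all tested loci), *Ehmt2*, a histone H3 lysine 9 methyltransferase (-0.93), and *Chd3*, a remodeller of the NuRD complex (-0.95). Neither call was kept without whole cell Scr sample 3, and that of *Chd3* was kept in 1 of the 6 fits without 1 Scr sample. Of the 23 immediate early genes none was called, with values from -1.91 for *Nr4a1* to 3.09 for *Egr2*, and of 14 snoRNA host genes only *Snhg17* was called higher (0.71 ± 0.20, adjusted p = 0.0430), a call that no fit without 1 Scr sample kept.

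The loci called higher with the most reads were chosen after their values were seen. *Prune2*, a large neuronal gene, was at 12560, 10843 and 12050 in nuclear and at 6939, 6718 and 7899 in whole cell samples (0.72 ± 0.18, adjusted p = 0.0245). *Unc5c*, a netrin receptor, was at 7359, 8611 and 8701 against 5017, 4912 and 5430 (0.68 ± 0.18, adjusted p = 0.0296), and *Syne1*, a giant protein of the nuclear envelope, was at 6295, 6966 and 7841 against 3984, 4238 and 4170 (0.76 ± 0.19, adjusted p = 0.0234). The locus of *Mir137*, a neuronal miRNA, rose by 0.78 ± 0.22 (adjusted p = 0.0393), and *Ahnak* and *Avl9* by 0.79 ± 0.19 and 0.75 ± 0.19. In all 6 of these loci every nuclear sample lay above every whole cell sample, by 1.61 to 1.73 times in the means. The largest differences among loci with 1 symbol, groups that do not overlap and a mean of at least 100 were, after *Scarna2*, *Gm10800* (2.50), *Gm45250* (2.11), *Cdc26* (2.05), *Ppm1e* (2.04), both loci of *Gm26883* (2.02 and 2.01) and RP23-5H4.1 (2.01). Of these, *Ppm1e*, a neuronal protein phosphatase, and RP23-5H4.1 stayed called in all 6 fits that left out 1 Scr sample, and the others in 2 or 3.

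mRNAs of the cytosolic ribosome fell together in the nuclear samples. Of 82 tested loci 63 were called lower (76.8%, against 3.70% of all tested loci), none was called higher, and the median difference was -1.83. The number called lower was 48 to 63 when 1 Scr sample was left out. The family held 0.496%, 0.797% and 0.948% of the reads in nuclear samples 1, 2 and 3 and 2.21%, 2.09% and 2.99% in whole cell samples (exact permutation test, two-sided p = 0.1, the smallest possible). *Rplp0*, a stalk protein of the large subunit, was at 452, 1732 and 1533 against 6496, 5655 and 9573 (-2.73 ± 0.47, adjusted p = 0.00145). *Rpl4* and *Rps2*, in loci shared with snoRNAs, differed by -2.01 and -1.85. *Rps21* had the largest fall of any named locus, from 361, 260 and 399 in whole cell samples to 21.3, 0 and 0 in nuclear samples (-6.90 ± 0.95, adjusted p = 0.000278), on a scale where a 0 depends on the pseudocount. With a pseudocount of 8 its difference was -4.80. The 2 loci above 0, *Rpl35a* (0.01) and *Rps4l* (0.74), were not called.

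Of 10 elongation factor loci 5 were called lower (50%, against 3.70% of all tested loci), with a median of -1.53, and 3 were called without whole cell sample 3. *Eef1a1*, which brings aminoacyl-tRNA to the ribosome, was at 1970, 5143 and 7098 in nuclear and at 22404, 20959 and 32397 in whole cell samples (-2.57 ± 0.42, adjusted p = 0.000997), and *Eef2* fell by 2.01 ± 0.35 on the log2 scale (adjusted p = 0.00147). Of 51 loci of initiation factors and their regulators, such as *Eif2ak3*, 10 were called lower (19.6%, against the same 3.70%) with a median of -0.54. Among the 10 were *Eif4g2* (-0.95), *Eif1* (-1.43) and *Eif4h* (-1.17), and also the regulator *Eif4ebp2* (-1.02). The number called was 5 without whole cell sample 3. *Pabpc1*, the cytoplasmic poly(A)-binding protein, was at 1150, 1390 and 1498 against 4058, 4181 and 5224 (-1.74 ± 0.22, adjusted p = 0.000236), and *Tpt1*, a growth-regulated mRNA of the same translational class as those of ribosomal proteins, fell by 2.53 ± 0.35. These last 2 genes, and *Npm1*, a nucleolar chaperone (-1.46 ± 0.29), were named after their values were seen. The mRNA of *Npm1* was lower in every nuclear sample, at 1272, 2007 and 2275 against 4642, 4642 and 5617.

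Most snoRNA genes of the assembly share a locus with their host gene. Of 67 tested loci 26 were called lower (38.8%, against 3.70% of all tested loci). One, *Scarna2*, was called higher (1.49%, near the 1.46% of all tested loci). The number called lower was 18 to 24 when 1 Scr sample was left out. However, 64 of the 67 loci join a snoRNA with another gene. The 3 called loci with the highest counts held *Rack1* with *Snord95* and *Snord96a* (-1.78), *Rps2* with *Snora64* (-1.85) and *Hspa8* with *Snord14c*, *Snord14d* and *Snord14e* (-2.09). These reads cannot be given to the snoRNAs.

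**Figure D3:**
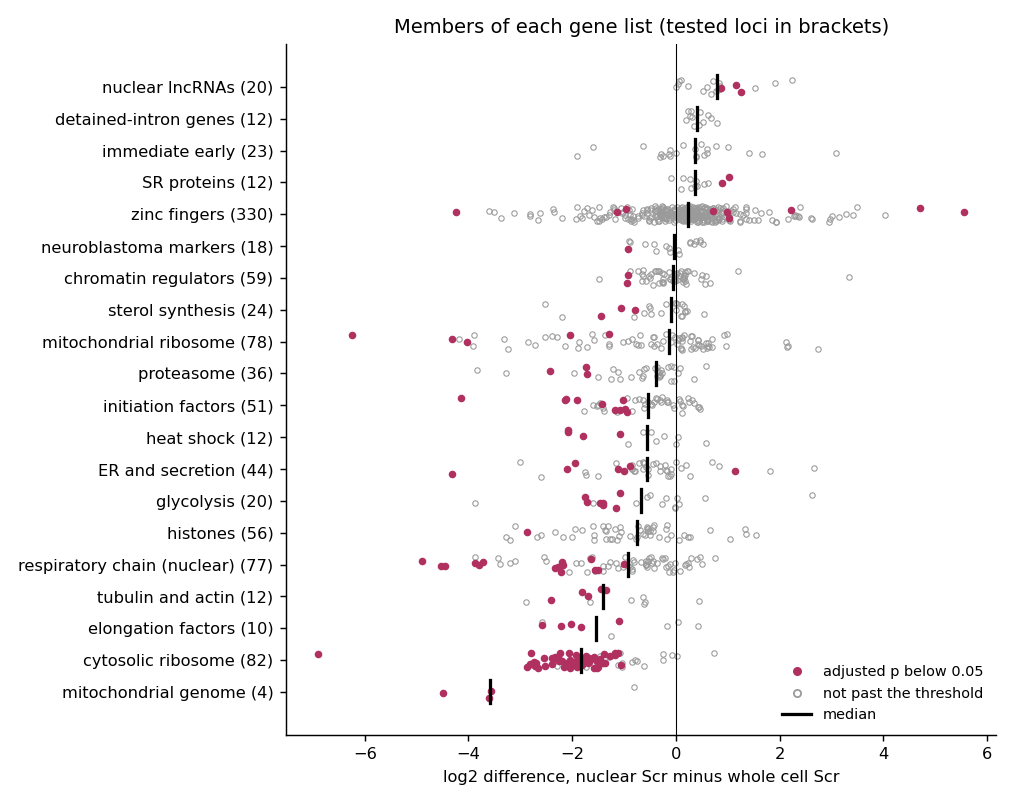
Log2 difference of nuclear Scr minus whole cell Scr (x axis) for each tested locus of 20 gene lists (rows, number of tested loci in brackets), filled where the adjusted p is below 0.05, with a bar at the list's median. The medians run from 0.79 for nuclear long noncoding RNAs to -3.58 for the mitochondrial genome, and 63 of 82 cytosolic ribosome loci are filled.

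The list of the mitochondrial genome had the lowest median (-3.58). Of its 4 tested loci 3 were called lower (75%, against 3.70% of all tested loci), in every fit without 1 Scr sample as well. The fourth, *mt-Nd6*, was not called (-0.81, adjusted p = 0.733). The locus of the mitochondrial ribosomal RNAs, *mt-Nd1* and *mt-Nd2* was at 1050, 6229 and 16584 in nuclear samples 1, 2 and 3 and at 93829, 96353 and 134609 in whole cell samples (-4.48 ± 0.65, adjusted p = 0.000397). The locus that runs from *mt-Co1* to *mt-Nd5* was at 1642, 6190 and 9632 against 51294, 43969 and 71668 (-3.56 ± 0.54, adjusted p = 0.000527), and that of *mt-Cytb* at 242, 1577 and 2407 against 11305, 9848 and 14868 (-3.60 ± 0.59, adjusted p = 0.0010). At these 3 loci every nuclear sample lay far below every whole cell sample, yet the nuclear samples differed among themselves, with sample 1 the lowest at each. Mitochondrial transcripts took 0.0514%, 0.237% and 0.485% of reads in nuclear samples 1, 2 and 3 and 2.69%, 2.57% and 3.69% in whole cell samples. The order of the 3 nuclear samples was the same for the cytosolic ribosome and elongation factors. In these bulk samples, a cytoplasmic RNA carried along with nuclei cannot be told apart from RNA inside them.

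Of 77 loci of nuclear genes for the respiratory chain 15 were called lower (19.5%, against 3.70% of all tested loci) with a median of -0.93. The count was 7 without whole cell sample 1 or 3 and 8 without whole cell sample 2. *Atp5b*, the beta subunit of ATP synthase in a locus with a snoRNA, was at 1036, 1240 and 1740 against 4027, 4162 and 3433 (-1.56 ± 0.23, adjusted p = 0.000397), *Sdhb* fell by 0.99 ± 0.22, and *Sdhc*, both of them succinate dehydrogenase subunits, was at 48.8, 0 and 55.5 against 197, 231 and 188 (-3.87 ± 0.96, adjusted p = 0.0201, and -2.79 with a pseudocount of 8). For mitochondrial ribosomal proteins 5 of 78 loci were called lower (6.41%, against 3.70% of all) and the median was -0.14. None was called without whole cell sample 1 or 3, 1 without nuclear sample 2, and 3 without nuclear sample 3 or whole cell sample 2. One of the 5, *Mrpl14*, had no read in any nuclear Scr sample. If each such library allows 3 reads, it was at least 22.6-fold lower than the mean of 89.0 in whole cell samples. This bound counts only the sampling of reads and not the spread between samples. Its call was lost without nuclear sample 2, whole cell sample 1 or whole cell sample 3.

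Of 20 glycolysis loci 7 were called lower (35%, against 3.70% of all tested loci) with a median of -0.67, including *Gapdh* (-1.71 ± 0.34, adjusted p = 0.00451), *Aldoa* (-1.41 ± 0.28) and *Ldha* (-1.07 ± 0.29). The call of *Ldha* did not survive the loss of any 1 Scr sample. Of 12 tubulin and actin loci 5 were called lower (41.7%) with a median of -1.40, including *Actg1* (-1.81 ± 0.31), *Tubb5* (-1.70 ± 0.35) and *Actb* (-1.45 ± 0.28, adjusted p = 0.00319). *Hsp90ab1*, the constitutive Hsp90, was at 1609, 2960 and 3050 in nuclear and at 9738, 9868 and 11589 in whole cell samples (-2.09 ± 0.28, adjusted p = 0.000245), and *Hspa8* fell by 2.09 ± 0.36. With *Hsp90aa1* (-1.08 ± 0.31) and *Hspe1* (-1.78), 4 of 12 heat shock loci were called lower (33.3%), with a median of -0.55.

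Of 44 loci for chaperones, translocon and glycosylation subunits of the endoplasmic reticulum, 6 were called lower (13.6%, against 3.70% of all tested loci) and 1 higher, that of *Sec11a* and *Nmb* (1.15), around a median of -0.56. The number called lower was 3 without nuclear sample 2 or whole cell sample 2, and 4 without whole cell sample 1 or 3. *Canx*, a lectin chaperone, was at 955, 1116 and 1647 in nuclear and at 2058, 2528 and 3405 in whole cell samples (-1.11 ± 0.24, adjusted p = 0.0091), *P4hb*, a disulfide isomerase, differed by -0.89 ± 0.25, and *Rpn1*, of the oligosaccharyltransferase, by -0.99 ± 0.24. In sterol synthesis 3 of 24 loci were called lower (12.5%), among them *Srebf2* (-0.80) and *Idi1* (-1.45), with a median of -0.10. None of these calls was made without whole cell sample 1, and 1 without nuclear sample 2 or whole cell sample 2 or 3. In the proteasome 3 of 36 (8.33%) were called lower, *Psmb4* (-1.72), *Psma6* (-1.72) and *Psmc3* (-2.42), with a median of -0.39, and the count was 1 without whole cell sample 2 and 5 without nuclear sample 1. Histone genes, whose main mRNAs lack a poly(A) tail, had a median of -0.76 but 1 call in 56 loci, *Hist1h2bj* (-2.88). Of 18 neuroblastoma marker loci 1 was called, *Elavl4* (-0.92), and the list had a median of -0.03. No locus of the list of other cell types was called.

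*Acaca* was the called locus with the smallest adjusted p. This gene (acetyl-CoA carboxylase 1, chr11:84129672-84401651) makes malonyl-CoA for fatty acid synthesis and belongs to the few mammalian enzymes that carry biotin as a covalent cofactor. It was at 1656, 2014 and 1800 in nuclear and at 37789, 101787 and 51308 in whole cell samples, 34.9 times lower on average (-5.00 ± 0.41, adjusted p = 1.84e-07). The nuclear samples were close together, whole cell sample 2 was the highest, and no fit with 1 Scr sample left out lost the call. Untransfected cells showed the same difference. *Acaca* was at 1446, 1388 and 1710 in nuclear Control and at 51837, 83219 and 52152 in whole cell Control samples. In 92b cells it was at 1758, 1624 and 1530 in nuclear and at 21857, 136586 and 40130 in whole cell samples. The difference between Scr and Control cells in this compartment effect was 0.33 on the log2 scale, with an adjusted p of 0.952.

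The other biotin-carrying carboxylases were looked at after these values were seen. The locus that joins *Acacb*, the mitochondrial acetyl-CoA carboxylase, with *Ung* was at 105, 160 and 93.3 in nuclear and at 602, 814 and 596 in whole cell samples (-2.50 ± 0.83, adjusted p = 0.0778), with no overlap between the groups. *Pcx*, pyruvate carboxylase, was at 152, 242 and 228 against 188, 181 and 195, *Mccc1*, of leucine breakdown, at 152, 113 and 155 against 160, 96.2 and 162, and *Pcca*, propionyl-CoA carboxylase, at 151, 135 and 95.8 against 28.9, 248 and 93.2. These 3 mRNAs overlapped between the groups, with differences of 0.11, 0.03 and 0.50.

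**Figure D4:**
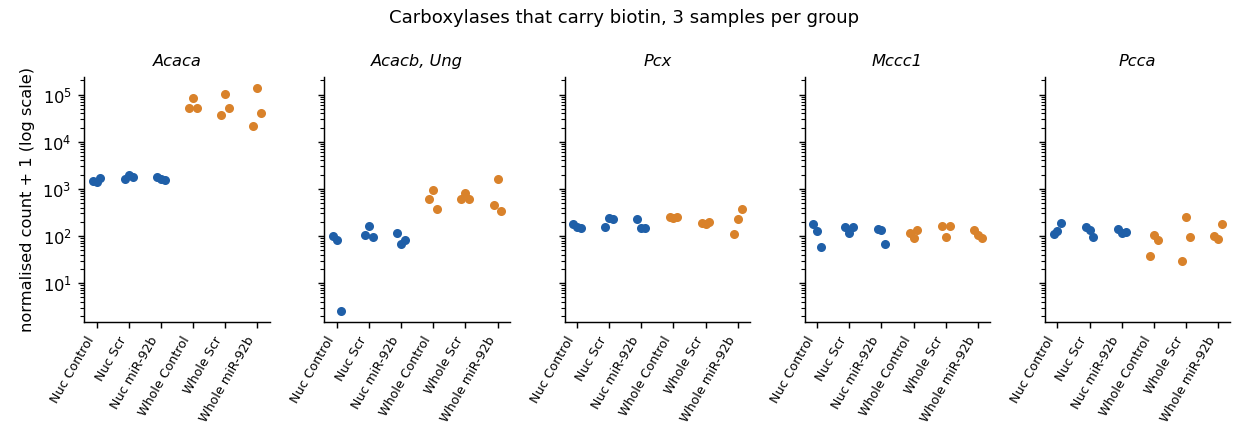
Normalised count + 1 (log scale) of 5 loci of biotin-carrying carboxylases in all 18 samples, 3 per group, nuclear samples in blue and whole cell samples in orange. Acaca is at 1388 to 2014 in the 9 nuclear samples and at 21857 to 136586 in the 9 whole cell samples, whatever the mimic, while Pcx, Mccc1 and Pcca overlap.

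Other large falls among loci with 1 symbol, groups that do not overlap and a mean of at least 100 were those of *Usf2*, a transcription factor (-4.39 ± 0.93), *Btbd2* (-3.74 ± 1.09), *Rbms2*, an RNA-binding protein (-3.73 ± 0.96), and *Ptn*, the growth factor pleiotrophin (-3.63 ± 0.99). Each of them had a nuclear sample at 0 and the others at 20.7 to 127, against 101 to 437 in whole cell samples, so that the size of the difference depends on the pseudocount. With a pseudocount of 8 the differences were -3.33 for *Usf2*, -2.71 for *Btbd2*, -2.63 for *Rbms2* and -2.58 for *Ptn*. Of these, the call of *Usf2* was kept in all 6 fits without 1 Scr sample, and the calls of the others in 2 or 3. On the recovered reads *Btbd2* was called neither by edgeR (adjusted p = 0.111) nor by DESeq2 (0.168). The same held for *Ptn* (edgeR 0.120, DESeq2 0.0594). *Rbms2* was called by DESeq2 (0.0235) and not by edgeR (0.0881), and *Usf2* by both.

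The loci called in each direction also differed in build. A GENCODE M21 gene was matched to 13872 of the tested loci (89.0%), to 183 of those called higher (80.3%) and to 486 of those called lower (84.2%), all of them loci with 1 symbol, with features taken from the longest annotated transcript. Genes called higher spanned a median of 29767 bases of the genome, all tested genes 19889 and genes called lower 16166. Protein-coding genes were 68.9% of those called higher, 76.3% of all and 96.3% of those called lower, and long noncoding genes were 24.0%, 19.0% and 1.23%. The GC content of the transcripts had medians of 45.2%, 48.5% and 51.4% in the same order. Among protein-coding genes cut into 4 equal groups by genomic span, 6.57% of the shortest were called lower and 0.642% higher, against 2.19% and 2.23% of the longest. These are descriptions, and the features were not separated from each other or from the level of expression.

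The same compartment difference was computed in Control and in 92b cells, which share no sample with the Scr groups, although all 6 groups share the estimate of the spread. In Control cells 458 loci were called higher (2.94%) and 1077 lower (6.91%) in the nuclear samples, and in 92b cells 1038 higher (6.66%) and 1033 lower (6.63%). Of the 577 loci called lower in Scr cells, 415 were also called lower in Control cells (71.9% of the Scr list and 38.5% of the Control list) and 404 in 92b cells (70.0% and 39.1%). Of the 228 called higher, 85 were also called higher in Control cells (37.3% and 18.6%) and 96 in 92b cells (42.1% and 9.25%). None was called in the opposite direction in either.

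The list medians put Scr cells closest to 0 for most cytoplasmic classes. The median of the cytosolic ribosome was -1.83 in Scr, -2.75 in Control and -2.44 in 92b cells, and 77 of the 82 loci had a difference smaller in size in Scr than in Control cells. The mitochondrial genome had medians of -3.58, -5.75 and -5.14, elongation factors of -1.53, -2.80 and -1.84, tubulin and actin of -1.40, -2.20 and -2.01, and histones of -0.76, -1.54 and -1.57. *Gapdh* differed by -1.71, -2.71 and -2.64 in the 3 kinds of cells. For nuclear long noncoding RNAs the medians were 0.79, 0.79 and 0.97. The medians of all tested loci were 0.01, 0.06 and 0.26, so the 92b medians stand against a higher level of all loci. Mitochondrial transcripts took 0.0268% to 0.106% of the reads in nuclear Control and 0.0476% to 0.112% in nuclear 92b samples, and nuclear Scr samples 2 and 3 were above both ranges. The part of these 2 samples in the smaller medians was not tested beyond leaving each out in turn.

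Locus by locus, the difference between the compartment effects was tested in the same model. Against Control cells limma called 0 of 15579 loci, with 823 at an unadjusted p below 0.05, edgeR called 0 and DESeq2 called 8. Against 92b cells limma called 1 locus, which joins *Pcmtd1* and *Gm38372*, with 1123 loci at an unadjusted p below 0.05, edgeR called 1 and DESeq2 called 40. Its values were 772, 617 and 777 in nuclear Scr and 548, 427 and 629 in whole cell Scr samples, a difference of 0.44 ± 0.28 that was not called in Scr cells (adjusted p = 0.370).

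**Figure D5:**
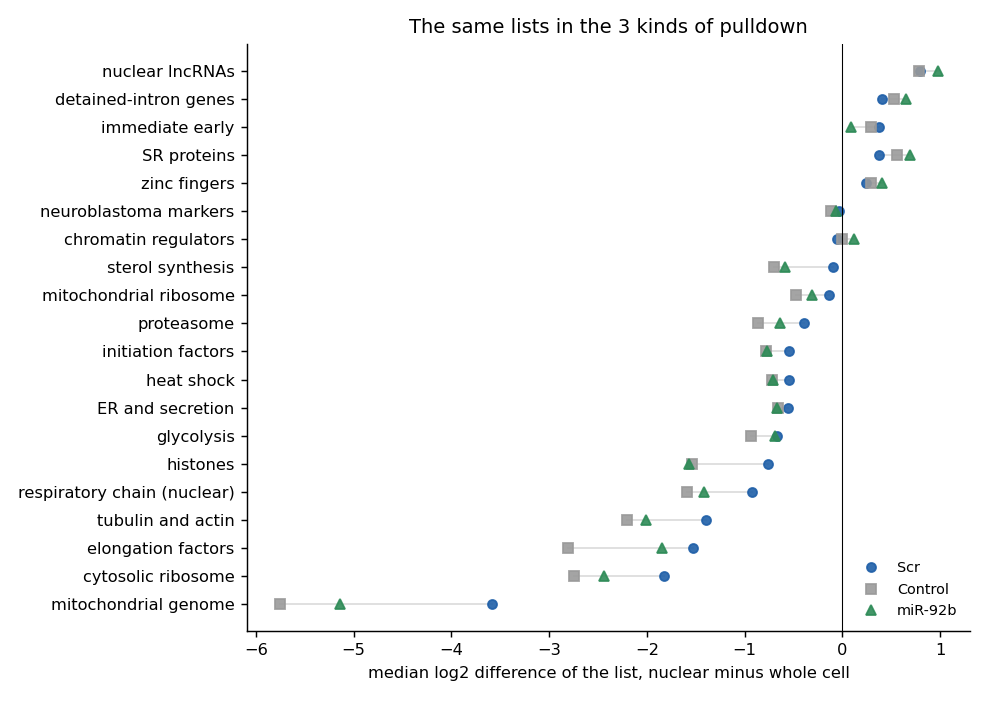
Median log2 difference of nuclear minus whole cell samples (x axis) for 20 gene lists (rows) in Scr (circles), Control (squares) and 92b cells (triangles). The cytosolic ribosome is at -1.83 in Scr, -2.75 in Control and -2.44 in 92b cells, and for the mitochondrial genome, elongation factors, tubulin and actin, and histones the Scr median is also the closest to 0.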

How the data were processed

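RNA was bound to streptavidin beads, selected on oligo-dT and made into stranded libraries. Per the labels and the study's methods, the authors trimmed reads with Trimmomatic 0.30 (after bcl2fastq 2.17), aligned them to GRCm38 (mm10) with TopHat2 and assembled them with Cufflinks. The deposited normalised counts (a signal per locus) are reads divided by 1 size factor per sample, and the authors also deposited FPKM values. All 635205 values above 0 on loci with a symbol were whole multiples of 1 read (100% within 0.02 reads), so the reads were recovered for DESeq2 and edgeR. The deposited tables of the authors' own comparisons (Cuffdiff fold changes on a log2 scale, p-values and q-values) were not used.

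Loci with a symbol and a mean normalised count of at least 10 over all 18 samples were tested. The test was limma 3.58.1 (R 4.3.3) on log2(value + 1), a scale that understates the change of low loci. One model held all 18 samples, and p-values were adjusted by Benjamini-Hochberg over 15579 loci. The members and gene lists were chosen with earlier results of these data known. Named loci were the 8 per direction with the largest difference (called, 1 symbol, no overlap, mean of at least 100), the 3 called loci per list with the most counts, the fraction markers, every tested nuclear long noncoding RNA, and loci called between treatments. Other names were chosen after values were seen. DESeq2 1.42.0, edgeR 4.0.16, other scalings, filters, pseudocounts, the FPKM values and left-out samples served as alternatives. The scripts were tested on simulated data.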

Additional observations from a re-analysis of the deposited data

Results flagged for a closer look

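The compartment difference of 1 locus differed between Scr and 92b cells by a test of the difference itself (2.45 ± 0.40 on the log2 scale, limma adjusted p = 0.0376). The locus joins *Pcmtd1*, a protein of the carboxyl methyltransferase family, with *Gm38372*. In 92b cells it was at 660, 584 and 688 in nuclear and at 2188, 4905 and 1610 in whole cell samples, a difference of -2.01 (adjusted p = 3.74e-05). In Scr cells the difference was 0.44 and in Control cells 0.07. The high values were those of the 3 whole cell 92b samples, which did not overlap with any other group given here. The reads cannot be split between the 2 genes.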

How the results depend on the processing

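Against 805 loci called, DESeq2 called 1288, limma without a filter on low values 399 and limma without whole cell 92b sample 3 (an alternative added after the data were seen) 1744. Leaving out 1 Scr sample gave 386 to 1052. The other alternatives stayed within 1.5 times. Between Scr and Control cells 0 loci were called, against 8 by DESeq2 and 0 to 3 with 1 Scr sample left out. Between Scr and 92b cells 1 was called, against 40 by DESeq2 and 2 with FPKM values. With 1 Scr sample left out 0 to 5 were called. The count was 0 with a minimum mean of 50, the compared groups alone, no filter or a pseudocount of 0.5. It was also 0 with samples scaled to the same median or with the replicate block. The fit on loci of 1 symbol called 0 as well. It cannot test the called locus, which joins *Pcmtd1* and *Gm38372* and is left out of that fit. Nuclear and whole cell Scr samples with the same number did not deviate together from their group means (correlations of -0.04, -0.02 and -0.02). No nuclear sample was closest to its own number. With 3 samples per group this cannot decide whether the numbers pair the samples. With the replicate block 871 loci were called. Of 79 named loci that were called, 26 were called under every alternative. Loci that changed sign had not been called. With FPKM values these were *Mccc1* (-1.27), *Pvt1* (-0.30) and the *Snrpn* locus of *Snhg14* (-0.65), with sample weights *Pcx* (-0.0633), *Airn* (-0.017) and *Lars2* (-0.40), with quantile normalisation *Airn* (-0.0042) and with thinned reads 1 locus of *Snhg14* (-0.011). With 1 Scr sample left out the values ran from -0.28 to 1.25 for *Pcca*, from -0.013 to 0.32 for *Pcx*, from -0.21 to 0.18 for *Mccc1*, from -0.089 to 0.088 for *Airn*, from -0.22 to 0.26 for 1 locus of *Snhg14*, from -0.018 to 0.42 for the *Gm22285* locus of *Snhg14*, from -0.086 to 0.27 for *Ftx* and from -0.71 to 2.08 for *Lars2*. The cause of these changes was not tested. At low loci a sample at 0 can stand beside a sample of the same group with many reads, also where the sample at 0 is the deeper one, as for *Ptn*.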

Other observations

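*Lars2*, the mitochondrial leucyl-tRNA synthetase, was the locus with the widest spread looked at. Its normalised count was 1147, 55278 and 8729 in the nuclear Scr samples and 9977, 3778 and 3688 in the whole cell Scr samples. Nuclear sample 2 was far above the other 5, nuclear sample 1 was the lowest, and the groups overlapped (0.66 ± 0.81, limma adjusted p = 0.678). Without nuclear sample 2 the difference was -0.71. The cause of the high value was not tested. The locus was chosen after its values were seen.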
